A study of Mus musculus with 18 samples.

Results

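Undifferentiated mouse neurospheres that mixed wild type with Pcdh19 knockout cells were compared with neurospheres of Pcdh19 knockout cells alone. The comparison used the 3 mosaic and the 3 knockout arrays of day 0, which are 6 of the 18 arrays of the series. Of 22180 genes, each read by a probe set with exactly 1 gene symbol and, where there were several such probe sets, by the one with the highest mean over all arrays, 19016 passed a filter on low signal and were tested. Neurospheres are balls of neural stem and progenitor cells that grow in suspension. The series also held wild type neurospheres and all 3 kinds of culture after 4 days of differentiation, in 3 arrays each. Total RNA was hybridised to Affymetrix mouse gene arrays, and the deposited values are normalized signals on a log2 scale, so that a difference of 1 is a doubling. Neither the share of knockout cells in the mosaic cultures nor the part of Pcdh19 that was deleted is given in the sources used here. Per the series' design the 3 replicates are technical, so every p-value, standard error and interval reflects the spread of these samples alone. In RNA from a whole culture, fewer cells of a type and less RNA per cell cannot be told apart.

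The labels describe all samples as female, and sex-linked genes went against this on all 6 arrays. Xist, the RNA that coats the inactive X chromosome of female cells, had log2 signals of 3.47 to 3.62, at percentiles of 22.5 to 24.4 among all probe sets of an array. The Y-linked genes Kdm5d (7.87 to 8.20), Uty (7.68 to 7.97) and Eif2s3y (8.59 to 9.04) had percentiles of 85 to 94.1. Both groups showed this, and over the 18 arrays Xist did not exceed 3.98. Markers of neural stem cells gave the signal the tissue label calls for: Sox2 measured 10.84 to 11.04, Fabp7 13.11 to 13.28 and Vim 12.61 to 12.69 on the 6 arrays. The mean log2 signal of 10 microglial genes was 4.70 to 4.83 and that of 7 endothelial genes 4.63 to 4.83, beside array medians of 4.91 to 4.94. None of the 4 red blood cell markers had a probe set with a symbol of its own.

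Pcdh19 lies on the X chromosome and encodes a protocadherin, a calcium-dependent adhesion protein of the cell surface that works together with N-cadherin. Because of X inactivation, females with a mutant copy carry a mixture of cells with and without the protein, and in humans such mixtures are linked to an epilepsy with clustered seizures. Mosaic and knockout cultures both hold cells without Pcdh19 and differ in whether wild type cells are present beside them. The comparison therefore addresses whether expression differs, before differentiation begins, when wild type cells are present. An effect of mixing and the plain contribution of the wild type cells cannot be told apart in it.

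Pcdh19 itself was read first, as a check on the labels. Its log2 signal was 5.39, 5.46 and 5.68 on knockout arrays 1, 2 and 3, and 6.03, 6.31 and 5.65 on mosaic arrays 1, 2 and 3. Mosaic arrays 1 and 2 lay above every knockout array, and mosaic array 3 lay within the knockout range. The wild type arrays of the same day measured 6.85, 6.83 and 6.66, above every mosaic array. On the linear scale the mosaic arrays stood 30.7%, 52.8% and 7.04% of the way from the knockout mean to the wild type mean. The mosaic mean exceeded the knockout mean by 0.49 ± 0.26 (SE) on the log2 scale, a difference that did not pass in limma over all genes (adjusted p = 0.9998). Read as a single gene, Pcdh19 had an unadjusted limma p of 0.081 in this fit, whose SE also draws on the day 4 arrays. The SE was 0.17 and the unadjusted p 0.021 with the 6 arrays alone, and 0.16 and 0.010 with the 9 day 0 arrays. With a variance trend and robust estimation the unadjusted p was 0.088. Leaving out single arrays gave 0.035 (without mosaic replicate 3) to 0.27 (without mosaic replicate 2). Without mosaic replicate 3 the difference was 0.67, and without mosaic replicate 2 it was 0.33. In the cultures sampled at day 4, the knockout arrays measured 5.70, 5.53 and 5.86 and the mosaic arrays 6.54, 7.09 and 5.52, so that the mosaic array labelled replicate 3 was just below the knockout arrays. Because the deleted part of the gene is not known here, the probe set may not report the deletion in full. Signal on knockout arrays does not show that protein was made.

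**Figure D1:**
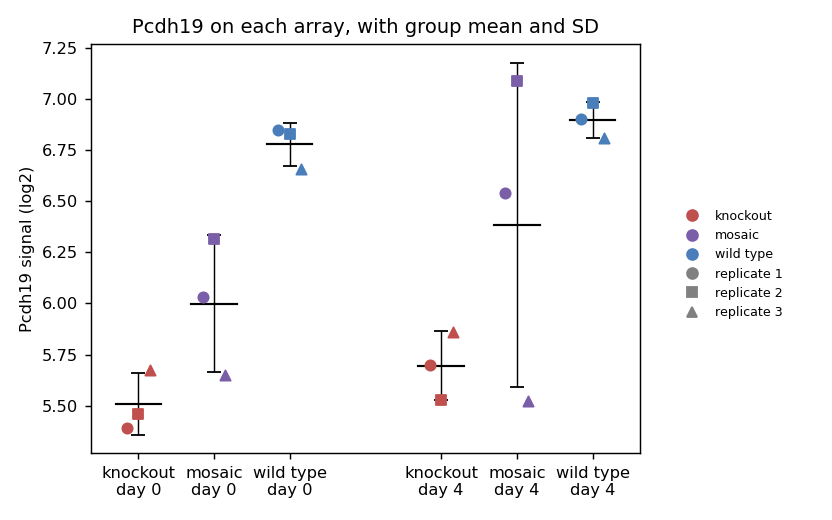
Pcdh19 log2 signal on each of the 18 arrays by culture and day (points, with the shape giving the replicate), with the group mean (bar) and SD (whiskers), n = 3. At day 0 the knockout arrays sit between 5.39 and 5.68, mosaic arrays 1 and 2 at 6.03 and 6.31, and mosaic array 3 at 5.65.

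No gene passed between mosaic and knockout neurospheres. In limma 0 of 19016 genes (0%) had an adjusted p under 0.05, and the lowest adjusted p was 0.9998. Without adjustment 806 genes (4.24%) had p under 0.05, of which 450 (2.37%) were higher and 356 (1.87%) lower in the mosaic. In 978 genes (5.14%) every mosaic array lay above every knockout array, and in 928 genes (4.88%) every mosaic array lay below; these are called genes without overlap here. Differences ran from -0.79 to 0.84 on the log2 scale, 43 genes (0.226%) differed by at least 1.5-fold and 0 by at least 2-fold. The middle of the distribution was narrow, with the 5th and 95th percentiles at -0.22 and 0.24 and the median at 0.00. The median absolute difference between group means was 0.0797, smaller than the median SD among replicates, which was 0.122 within the mosaic and 0.126 within the knockout.

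Among these samples, the differences can be bounded more tightly than the absence of calls alone shows. Because the replicates are technical, the intervals reflect the spread of these samples and not that among independent cultures. Each interval is for a single gene and was not adjusted over all genes, and its standard error also draws on the wild type and day 4 arrays. Larger differences between independent cultures are therefore not excluded. The median standard error of a difference was 0.126, and for 16823 genes (88.5%) the whole 95% interval of the difference lay within 1.5-fold in either direction. For 18866 genes (99.2%) it lay within 2-fold. Pearson's r over all 41345 probe sets was 0.982 to 0.985 for the 9 pairs of a mosaic and a knockout array. Within each group it was 0.983 to 0.984. The first principal component of the 6 arrays held 25.8% of the variance and did not part the groups: its scores were -2.95, -12.76 and 17.38 for knockout replicates 1, 2 and 3, and -13.04, -1.41 and 12.78 for mosaic replicates 1, 2 and 3. Knockout array 3 and mosaic array 3 stood together at the high end of that component.

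**Figure D2:**
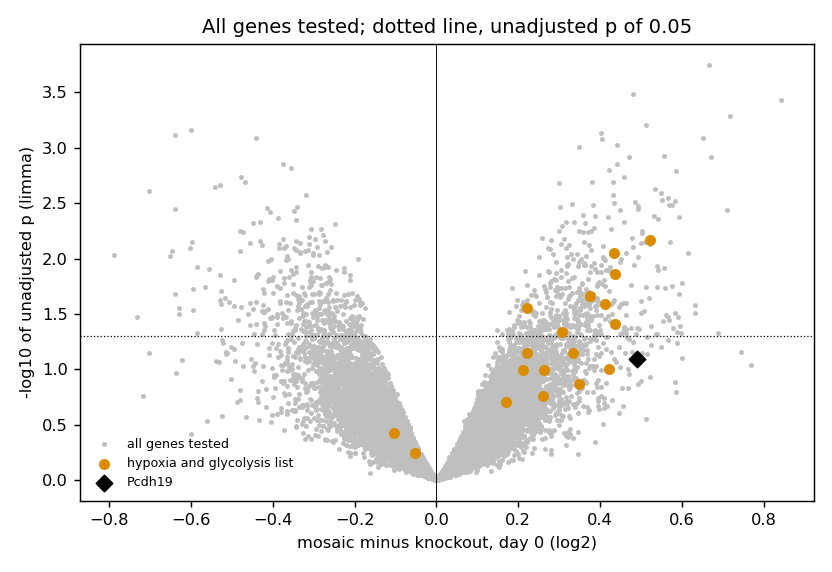
Each of 19016 genes by its mosaic minus knockout difference at day 0 (log2, horizontal) and the negative log10 of its unadjusted limma p (vertical); orange points are the 18 hypoxia and glycolysis genes tested and the black diamond is Pcdh19. The dotted line marks an unadjusted value of 0.05, and 16 orange points lie to the right of 0.

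Of the 36 gene lists read in this comparison, genes of hypoxia and glycolysis had the highest median difference. Cells short of oxygen stabilise HIF, a transcription factor that binds a short DNA core and turns on genes for glucose uptake, glycolysis, blood vessel growth and the reduction of mitochondrial respiration. Of 21 listed genes 18 were tested; Aldoa and Ankrd37 shared their probe sets with other symbols and Eno1 had no listed symbol. None was called. In 8 of the 18 (44.4%) every mosaic array lay above every knockout array, where 5.14% of all genes did, and in 0 every mosaic array lay below. Differences were above 0 for 16 of the 18, and their median was 0.32 where that of all genes was 0.00. The list had been seen to stand out in these data before this count was made, so the count is a description. Promoter windows are shown for the first 4 of the 8 genes, in order of their difference, that hold ACGTG on either strand. They were picked by the motif first and then by size, and Pgam1 and Pgk1 lie below the list median. Each window is the 250 bases before the RefSeq start site on GRCm38.p6, 5′ to 3′ on the gene's own strand, and capitals mark the core ACGTG or its reverse complement CACGT.
P4ha1 (chr10:59323046-59323295, plus strand): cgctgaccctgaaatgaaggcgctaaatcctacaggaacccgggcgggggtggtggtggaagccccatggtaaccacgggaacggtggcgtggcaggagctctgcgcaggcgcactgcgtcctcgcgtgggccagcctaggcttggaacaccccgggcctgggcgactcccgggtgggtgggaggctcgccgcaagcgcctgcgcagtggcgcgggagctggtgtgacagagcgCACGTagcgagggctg
Slc2a1 (chr4:119108495-119108744, plus strand): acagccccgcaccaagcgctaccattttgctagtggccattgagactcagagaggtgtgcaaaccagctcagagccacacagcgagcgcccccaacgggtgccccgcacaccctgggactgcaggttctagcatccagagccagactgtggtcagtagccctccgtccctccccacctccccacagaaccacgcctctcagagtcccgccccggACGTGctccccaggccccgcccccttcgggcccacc
Pgam1 (chr19:41911621-41911870, plus strand): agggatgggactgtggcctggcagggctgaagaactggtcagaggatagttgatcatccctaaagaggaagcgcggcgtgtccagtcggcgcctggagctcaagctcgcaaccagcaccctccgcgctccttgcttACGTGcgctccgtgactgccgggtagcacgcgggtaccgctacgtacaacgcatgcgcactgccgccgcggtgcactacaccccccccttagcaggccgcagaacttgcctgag
Pgk1 (chrX:106186850-106187099, plus strand): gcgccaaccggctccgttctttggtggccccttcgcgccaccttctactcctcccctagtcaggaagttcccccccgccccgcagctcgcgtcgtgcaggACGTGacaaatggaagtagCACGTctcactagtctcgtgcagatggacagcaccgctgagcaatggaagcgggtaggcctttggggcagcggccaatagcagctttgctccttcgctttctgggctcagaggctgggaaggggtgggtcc

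The match lies 16 bases before the start of P4ha1, 36 before that of Slc2a1 and 114 before that of Pgam1, and Pgk1 has matches 150 and 131 bases before its start. ACGTG, searched on both strands as ACGTG and CACGT, occurred in the 250-base windows of 12 of the 17 list members with a window (70.6%) and of 5 of the 7 among the genes without overlap (71.4%). Among all genes tested 3218 of 14663 with a window held it (21.9%). A gene counted if any of its windows held a match. Many listed genes are known targets of HIF, so a share above that of all genes can follow from how the list was drawn. It says nothing about mosaic against knockout, and the shares of 70.6% and 71.4% were alike. Adm and Pfkl had windows without these letters. ACGTG is shared with E-box motifs such as CACGTG, and a match is a description of the sequence only.

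Genes of glucose uptake and of the first steps of glycolysis differed by 0.26 to 0.52. Slc2a1, the glucose transporter GLUT1, measured 8.93, 8.81 and 8.88 on the knockout arrays and 8.96, 9.35 and 9.55 on the mosaic arrays, with a difference of 0.41 ± 0.17 (SE). Pfkp, the platelet-type phosphofructokinase, had the largest difference of the list, 0.52 ± 0.17 or 1.44-fold. Its signals were 6.60, 6.74 and 6.89 in the knockout and 6.82, 7.46 and 7.52 in the mosaic, so that mosaic array 1 fell inside the knockout range. Pfkl, the liver-type enzyme of the same step, measured 8.16, 8.04 and 8.11 against 8.17, 8.49 and 8.78, a difference of 0.38 ± 0.15. In these genes mosaic arrays 2 and 3 were high and mosaic array 1 was at or just above the knockout level. Hk2, the hexokinase that traps glucose in the cell, differed by 0.26 ± 0.18 with overlap.

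Among later enzymes of glycolysis, Pgk1, Pgam1 and Ldha differed by 0.21 to 0.22 without overlap. Pgk1, phosphoglycerate kinase, measured 11.12, 11.23 and 11.12 in the knockout and 11.31, 11.41 and 11.42 in the mosaic, a difference of 0.22 ± 0.09. Here all 3 mosaic arrays were above the knockout arrays. Pgam1, phosphoglycerate mutase, measured 9.68, 9.49 and 9.57 against 9.73, 9.80 and 9.88 (0.22 ± 0.12), although its dimmer probe set gave -0.06. Ldha, lactate dehydrogenase, measured 6.74, 6.53 and 6.71 against 6.84, 6.89 and 6.89 (0.21 ± 0.12). Tpi1, triosephosphate isomerase, differed by 0.26 ± 0.15 with overlap, since mosaic array 1 measured 10.27 and knockout array 1 measured 10.32. Pdk1, a kinase that inhibits pyruvate dehydrogenase, differed by 0.31 ± 0.14 with overlap.

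Secreted and other targets of HIF followed the arrays in the same way. Adm, the vessel-relaxing peptide adrenomedullin, measured 6.75, 6.58 and 6.26 in the knockout and 6.82, 7.06 and 7.01 in the mosaic, a difference of 0.43 ± 0.15. P4ha1, a prolyl hydroxylase of collagen, measured 8.44, 8.19 and 8.28 against 8.51, 8.82 and 8.89 (0.44 ± 0.16). Ndrg1, a stress-response gene, measured 6.70, 6.50 and 6.71 against 6.72, 7.23 and 7.28 (0.44 ± 0.20). Groups did not overlap in these 3 genes, and in each the lowest mosaic array was replicate 1. Vegfa, the vascular growth factor, differed by 0.42 ± 0.24 with overlap: its mosaic arrays measured 10.13, 10.55 and 10.83 and its knockout arrays 10.19, 9.83 and 10.22. Bnip3, a mitophagy receptor, differed by 0.35 and Ero1a, an oxidase of the endoplasmic reticulum, by 0.33, both with overlap. Egln3, an oxygen sensor, differed by 0.17. The members with differences below 0 were Mxi1 (-0.05) and Car9 (-0.10), a carbonic anhydrase, and a second probe set of each had the opposite sign (0.11 and 0.23).

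**Figure D3:**
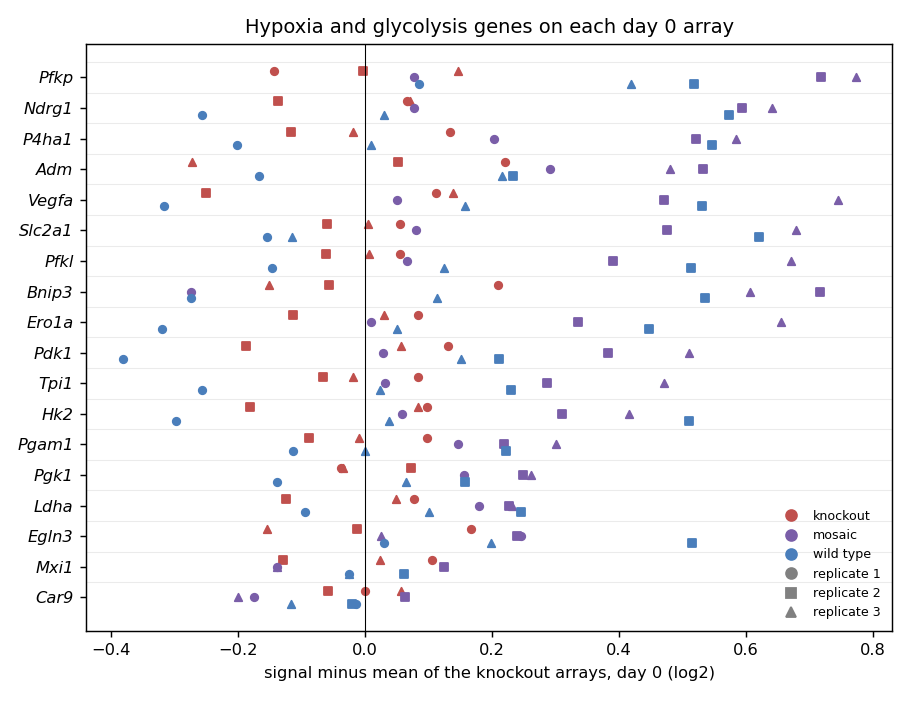
Log2 signal of each tested hypoxia and glycolysis gene on the 9 day 0 arrays, given as the difference from the knockout mean (colour is the culture, symbol the replicate). Mosaic arrays 2 and 3 lie to the right for most genes, mosaic array 1 lies near the knockout arrays, and wild type array 2 lies among the mosaic arrays.

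The list did not set the mosaic apart from wild type neurospheres array by array. Its mean log2 signal was 8.12, 7.95 and 8.03 on the knockout arrays, 8.10, 8.42 and 8.46 on the mosaic arrays and 7.87, 8.40 and 8.11 on the wild type arrays. Mosaic array 1 lay within the knockout range and wild type array 2 lay at the level of mosaic array 2. The wild type and the mosaic comparison share the knockout arrays, and their medians over the list were 0.09 and 0.32. Without overlap, 0 of the 18 genes were higher in the wild type, where 4.44% of all genes were, and 0 were lower, where 4.76% were. Of the other lists, heat shock genes also had higher means on mosaic arrays 2 and 3 (8.30 and 8.40) than on mosaic array 1 (7.92), but there knockout array 3 (8.33) was as high, which it was not for hypoxia genes. Whether the state of single cultures at harvest had a part in the result was not tested.

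Leaving out single arrays changed the size of the list median and not its sign. The list had already stood out on these same arrays, so this describes the arrays and does not test the result. The median over the list was 0.21 without mosaic replicate 3, 0.26 without mosaic replicate 2 and 0.47 without mosaic replicate 1. Without knockout replicates 1, 2 and 3 in turn it was 0.37, 0.27 and 0.30. Genes without overlap numbered 15 of 18 without mosaic replicate 1, where 10.4% of all genes were higher without overlap, and 8 to 10 when any other array was left out, where 9.27% to 10.7% were. Differences above 0 numbered 16 or 17 of 18 in each case. Without mosaic replicate 2, 2 of the 18 genes were lower without overlap. The share of all genes lower in that setting was not counted, and 9.27% were higher. A further 19 genes of the same kind, added after the values had been seen, gave a median of 0.17, with 16 above 0, 4 higher without overlap (21.1%, where 5.14% of all genes were with all arrays) and 0 lower (4.88% of all genes). These 4 were Mif, a cytokine (0.32), Plod2, a lysyl hydroxylase of collagen (0.29), Gbe1, the glycogen branching enzyme (0.28), and Gapdh of glycolysis (0.12). At day 4, in separate samples, the list median of mosaic minus knockout was 0.11, with 2 genes higher (4.24% of all genes) and 1 lower (4.44% of all genes) without overlap.

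Ranked by size among genes without overlap, the 12 highest differences in the mosaic ran from 0.52 to 0.65, and none passed over all genes. Apobec1, the cytidine deaminase that edits apolipoprotein B RNA, was the largest: it measured 8.54, 8.36 and 8.56 in the knockout and 8.97, 9.31 and 9.15 in the mosaic, a difference of 0.65 ± 0.16 (SE) or 1.57-fold. Wild type arrays measured 8.66, 9.29 and 8.77, all above the knockout arrays, and 1 of them lay within the mosaic range. Tnfrsf12a, the receptor for the cytokine TWEAK, measured 6.70, 6.81 and 6.46 against 7.27, 7.08 and 7.27 (0.55 ± 0.15). Its wild type arrays, at 6.93, 7.03 and 6.65, all lay below the mosaic arrays, and 1 of them lay within the knockout range. Flrt1, a leucine-rich repeat adhesion protein of axons and synapses, measured 5.71, 4.71 and 5.09 in the knockout and 5.76, 5.73 and 5.75 in the mosaic (0.58 ± 0.17). The mosaic arrays lay close together and the knockout arrays spread widely. Without knockout replicate 1, Flrt1 differed by 0.85 and was then the 1 gene called in limma (adjusted p = 0.0446). The other knockout arrays were then both far below the mosaic, and the wild type arrays (5.86, 6.13 and 5.86) were on the mosaic side.

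The remaining higher genes were dimmer or less well known in neural cells. Stk26, a kinase of the Ste20 family, measured 3.90, 3.82 and 3.58 against 4.82, 4.21 and 4.01 (0.58 ± 0.17). Zfp994, a zinc finger gene, measured 5.26, 5.60 and 5.54 against 6.13, 6.01 and 5.82 (0.52 ± 0.17), and the wild type arrays at 6.16, 5.86 and 6.25 stood with the mosaic. Naip5, an inflammasome sensor of bacterial flagellin, measured 5.11, 4.84 and 4.80 against 5.31, 5.53 and 5.48 (0.52 ± 0.24). It belongs to a cluster of near-identical genes, and its relative Naip6 was among the lowest differences, so that both are uncertain where probes could share their transcripts. Aadacl4fm4 (0.59), Teddm3 (0.58), Pglyrp3, a peptidoglycan recognition protein (0.56), Rps15, a ribosomal protein (0.54), Serpina1e, a protease inhibitor (0.54), and Krtap31-1, a keratin-associated protein (0.54), made up the rest. Krtap31-1 averaged 2.93 in the knockout and 3.46 in the mosaic, both under the 25th percentile of these arrays (3.65). Of the 12, Teddm3 was also higher without overlap at day 4. Of the same 12, 5 had a mean below the array median.

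The 12 lowest differences without overlap ran from -0.65 to -0.53. Chrnb2, a subunit of the nicotinic acetylcholine receptor of neurons, measured 5.71, 5.97 and 5.73 in the knockout and 5.44, 4.75 and 5.26 in the mosaic (-0.65 ± 0.22). Its wild type arrays, at 5.34, 5.54 and 6.13, ranged from among the mosaic arrays to above the knockout arrays. Pcdhb11, a clustered protocadherin of the beta family, measured 6.47, 6.26 and 6.55 against 5.93, 5.89 and 5.65 (-0.60 ± 0.20). All 3 mosaic arrays were below the knockout, and wild type arrays at 5.57, 6.13 and 6.34 crossed the gap. Genes of the beta cluster are near-identical copies, so the assignment to this member is uncertain. Nefl, the light neurofilament chain of axons, measured 4.27, 4.17 and 4.42 against 3.56, 3.95 and 3.76 (-0.53 ± 0.21). Cntn6, a contactin adhesion protein of axons, measured 4.94, 4.84 and 4.64 against 4.16, 4.61 and 4.05 (-0.53 ± 0.29). Both had means below the array median.

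Gpr55, a lipid-sensing receptor, measured 5.06, 4.79 and 4.97 in the knockout and 4.49, 4.19 and 4.49 in the mosaic (-0.56 ± 0.20). Cdrt4 (-0.64), Tmem181c-ps, a pseudogene (-0.64), Mcpt1, a mast cell protease (-0.60), Naip6 (-0.54), Fndc8 (-0.53), Serpinb1b, a protease inhibitor (-0.53), and Zfp972, a zinc finger gene (-0.53), completed the lowest group. Among the 24 genes the lowest unadjusted p in limma was 0.000689, for Mcpt1, and it did not pass over all genes. Of the 12 lowest, 9 had a mean below the array median, where 6018 of the 19016 genes tested did. At day 4, in separate samples, 14 of the 24 differences (58.3%) kept their sign, where 52.7% of all genes tested did. Those that kept both sign and separation numbered 1 of 24, Teddm3, which measured 4.60, 4.52 and 4.21 in the knockout and 5.05, 4.83 and 5.20 in the mosaic at day 0.

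**Figure D4:**
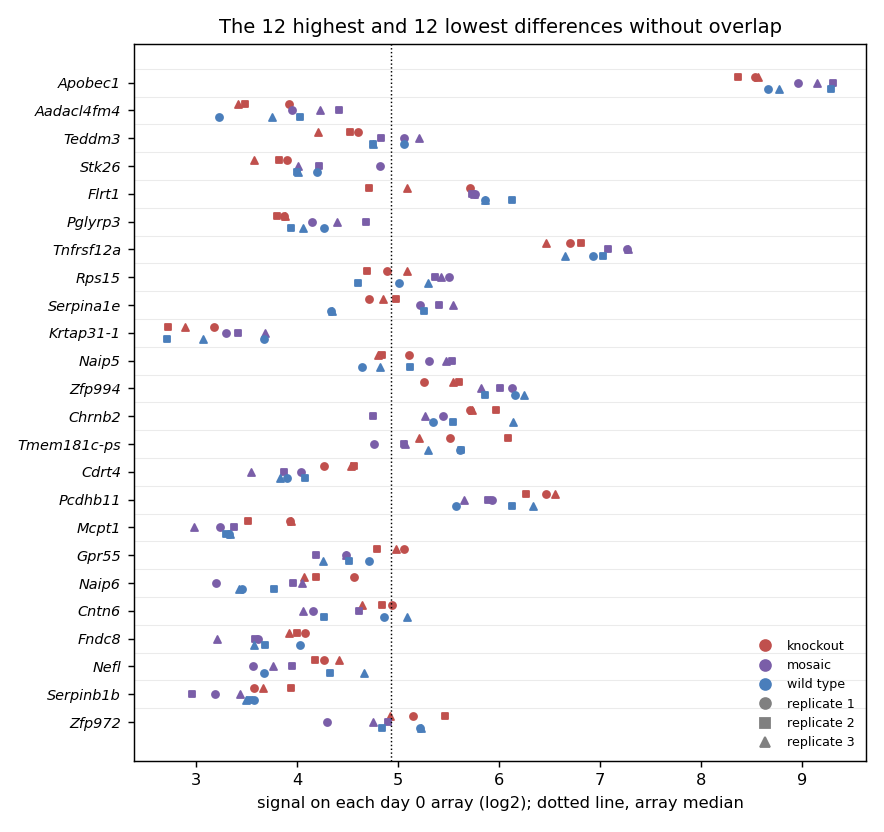
Log2 signal on the 9 day 0 arrays of the 12 highest and the 12 lowest differences without overlap (colour is the culture, symbol the replicate; the dotted line is the mean array median, 4.93). Knockout and mosaic points are separate in each row by the way the rows were chosen, and wild type points often fall between them or with either.

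Of 19 neuronal genes tested 5 were above 0 and 4 (21.1%) were lower without overlap, where 4.88% of all genes were, and their median was -0.11. Besides Nefl these were Syt1, the calcium sensor of synaptic vesicles (-0.38 ± 0.31), Nefm, the medium neurofilament chain (-0.34 ± 0.15), and Rbfox3, the neuronal nuclear protein NeuN (-0.27 ± 0.14). The means of Nefl and Nefm lay below the mean array median of 4.93 in both cultures. Rbfox3 measured 6.24, 6.10 and 6.56 in the knockout and 6.03, 6.0 and 6.06 in the mosaic. Tubb3 (-0.12), Map2 (-0.09) and Snap25 (0.08), widely used neuronal markers, overlapped. No neuronal gene was called, and leaving out each array in turn gave medians from -0.14 to -0.08. The wild type arrays, against the same knockout arrays, had a list median of 0.01. At day 4 the median was -0.12, with 0 genes without overlap in either direction.

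Genes of intermediate progenitors and neuroblasts, the dividing and migrating cells on the way to neurons, had a median of 0.01 over 20 genes. In 3 of the 20 the mosaic was lower without overlap, where 4.88% of all genes were: Tbr1 (-0.24), Dlx6 (-0.19) and Sox4 (-0.13), all transcription factors. Tbr1 averaged 3.21 in the mosaic and 3.45 in the knockout, both under the 25th percentile of these arrays (3.65), so that its difference is one between signals in the range the filter treats as low. Dcx, the microtubule protein of migrating neuroblasts, measured 7.62, 7.25 and 7.90 against 7.23, 7.36 and 7.19 (-0.33 ± 0.20), with overlap. Eomes, which marks intermediate progenitors, differed by 0.19 and overlapped. Among 23 genes of neural stem and radial glia cells the median was -0.03, 9 were above 0, and Hopx (0.29 ± 0.15) and Cd9 (0.11) were higher without overlap, where 5.14% of all genes were. Sox2 (-0.04 ± 0.08), Fabp7 (-0.05 ± 0.07), Vim (0.01 ± 0.08) and Pax6 (-0.01 ± 0.12) differed by less than their standard errors, and their 95% intervals stayed within -0.26 and 0.24. Hes5, a Notch effector that keeps stem cells undifferentiated, measured 10.93, 11.17 and 10.51 against 10.98, 10.48 and 10.14 (-0.34 ± 0.17).

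Glial genes followed single arrays more than the culture. The mean of 18 astrocyte genes was 8.76, 8.65 and 9.02 on the knockout arrays and 8.61, 8.90 and 8.97 on the mosaic arrays, and the median difference was 0.02. Gfap, the astrocytic filament, measured 7.93, 7.59 and 8.77 against 7.68, 8.41 and 8.56, so that the SD among replicates was larger than its difference of 0.12 ± 0.27. Sparcl1, a secreted synaptogenic protein, was the 1 astrocyte gene of 18 lower without overlap (-0.23 ± 0.12), where 4.88% of all genes were. Among 15 genes of oligodendrocyte progenitors and 15 of oligodendrocytes the medians were 0.02 and 0.05, with 0 genes without overlap in either list. Their list means were highest on knockout array 3 and mosaic array 3, 8.56 and 8.55 for progenitors. Olig2 (-0.01 ± 0.08) and Pdgfra (-0.00 ± 0.14), which define progenitors, did not separate the cultures. In other cell types, 1 of 10 microglial genes (P2ry12, -0.29), 2 of 9 mural and fibroblast genes (Col1a2 and Rgs5, -0.18 and -0.16) and 1 of 5 ependymal genes (Dynlrb2, -0.53) were lower without overlap, where 4.88% of all genes were, and 0 of 7 endothelial genes differed without overlap. The list means of these cell types were 4.73 to 4.82 against 4.70 to 4.83 for microglia and 5.28 to 5.43 against 5.26 to 5.39 for mural cells, in knockout and mosaic.

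Adhesion genes related to Pcdh19 differed little. Of 11 nonclustered protocadherins, Pcdh18 (-0.28 ± 0.17) and Pcdh8 (-0.23 ± 0.11) were lower in the mosaic without overlap, where 4.88% of all genes were, and none was higher. Pcdh18 measured 6.26, 6.02 and 5.90 against 5.80, 5.82 and 5.72, and Pcdh8 measured 5.79, 5.84 and 5.89 against 5.71, 5.51 and 5.62. Wild type arrays of Pcdh8, at 5.90, 5.55 and 5.52, lay on both sides. Pcdh10 (-0.09 ± 0.08), Pcdh17 (-0.02 ± 0.10) and Pcdh9 (-0.06 ± 0.08) overlapped. These genes, Pcdh8 and Pcdh18 are all delta protocadherins, as is Pcdh19. Cdh2, which encodes N-cadherin, the partner of Pcdh19, measured 10.76, 10.77 and 10.82 against 10.69, 10.80 and 10.80 (-0.02 ± 0.08), and its 95% interval was -0.19 to 0.15. Over 19 classical cadherins and catenins the median was -0.02. Ctnna1, alpha-catenin, was lower without overlap (-0.09), where 4.88% of all genes were.

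In the WAVE complex and its actin partners, through which several delta protocadherins reach the cytoskeleton, Wasf3 (-0.17 ± 0.08) and Wasf1 (-0.12 ± 0.08), both scaffold proteins of the complex, were lower in the mosaic without overlap, 2 of 14 genes, where 4.88% of all genes were. Wasf3 measured 7.24, 7.21 and 7.27 against 7.12, 7.12 and 6.99. The scaffold Nckap1 (0.01 ± 0.07) and the GTPase Rac1 (-0.01 ± 0.07) did not differ beyond their errors, and the list median was 0.03. Of 11 genes that lie near Pcdh19 on the X chromosome, 0 differed without overlap and the median was -0.01. GABA-A receptor subunits, whose regulation has been tied to Pcdh19 in neurons, had a median of 0.06 over 9 genes, all with overlap. Of 23 synaptic genes 1, Syt1, was lower without overlap (4.35%), where 4.88% of all genes were, and the median was -0.04.

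Of 29 axon guidance genes tested none was called. In this list 10 were above 0, 4 (13.8%) were lower without overlap, where 4.88% of all genes were, and 0 were higher, where 5.14% were. The median was -0.07. The 4 were the ephrin receptors Epha4 (-0.28 ± 0.11) and Epha3 (-0.27 ± 0.16), the netrin receptor Dcc (-0.21 ± 0.15) and the ligand Efnb2 (-0.12 ± 0.13). Epha4 measured 8.76, 8.63 and 8.99 in the knockout and 8.56, 8.44 and 8.55 in the mosaic. Epha3 measured 5.88, 5.87 and 5.89 against 5.53, 5.65 and 5.64. In both genes the mosaic arrays lay clear of the knockout arrays, yet neither passed over all genes (adjusted p = 0.9998 in limma). At day 4 Epha4 differed by -0.07 and Epha3 by 0.02. The list median stayed between -0.10 and -0.06 when each array was left out.

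Signalling pathways showed isolated differences. In the Notch pathway, which holds neural stem cells back from differentiation, the ligand Dll1 measured 8.28, 8.23 and 8.12 in the knockout and 8.10, 8.02 and 7.94 in the mosaic (-0.19 ± 0.08), although its dimmer probe set gave 0.07. It was the 1 gene of 24 without overlap (4.17%), where 4.88% of all genes were lower, and the list median was -0.06. Of 15 Wnt targets Notum, a secreted Wnt inhibitor, was higher (0.39 ± 0.12), with 4.99, 4.55 and 4.90 against 5.07, 5.41 and 5.13. Nkd1, another Wnt inhibitor, had the lowest difference of that list, -0.60 ± 0.19, with overlap. Ccnd1, cyclin D1, measured 8.37, 9.15 and 7.95 against 9.35, 9.20 and 8.56 (0.55 ± 0.28), and its knockout arrays spanned more than its difference. Among ERK feedback genes, which damp growth factor signals, Spred2 (0.32 ± 0.10) and Spred1 (0.15 ± 0.09) were higher and Phlda1 (-0.37 ± 0.13) and Dusp5 (-0.29 ± 0.14) lower without overlap, 2 of 17 genes in each direction, where 5.14% of all genes were higher and 4.88% lower. Tgfbi, a matrix protein induced by TGF-beta (0.33 ± 0.13), was the gene of that list without overlap among 14, where 5.14% of all genes were higher.

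Immediate early genes, which answer a stimulus within minutes, had a median of -0.11 over 23 genes that rested on a single array: without mosaic replicate 3 it was 0.01. Egr2 (-0.47 ± 0.27), Fosb (-0.36 ± 0.25) and Ier2 (-0.33 ± 0.17) had the lowest differences and overlapped. Dusp1, a phosphatase of the MAP kinases, was higher without overlap (0.28 ± 0.15), where 5.14% of all genes were. Of 16 targets of p53 the median was 0.09. Cdkn1a, the cell cycle inhibitor p21, measured 10.19, 10.06 and 9.87 in the mosaic, where knockout arrays 1 and 3 measured 9.65 and 9.35 (0.37 ± 0.15). The groups overlapped, because knockout array 2 lay between mosaic arrays 2 and 3. Plk2, a kinase of the p53 list, was lower without overlap (-0.30 ± 0.13), where 4.88% of all genes were.

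Proliferation and metabolism outside glycolysis were close between the cultures. Mitotic genes had a median of 0.02 over 20 genes. Mki67, the proliferation marker Ki-67, measured 10.28, 10.42 and 10.24 against 10.29, 10.36 and 10.28 (-0.00 ± 0.21). At day 4 the same list had a median of 0.44. DNA replication genes had a median of 0.11 with 17 of 21 above 0 and 0 without overlap; this turned to -0.03 without knockout replicate 3, whose list mean of 6.75 was the lowest of the 6 arrays. Mcm3, a subunit of the replicative helicase, had the largest difference of that list (0.35 ± 0.19). Of 18 genes of cholesterol synthesis 17 were above 0 by small amounts, with a median of 0.08. Hmgcs1, the synthase at the head of the pathway, measured 11.59, 11.57 and 11.49 against 11.62, 11.91 and 11.72 (0.20 ± 0.14). It was the gene of this list without overlap, where 5.14% of all genes were higher.

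Oxidative phosphorylation genes, the mitochondrial counterpart of glycolysis, had a median of 0.01 over 19 genes. Ndufa1 (-0.22 ± 0.10) and Cox4i1 (-0.12 ± 0.09), subunits of respiratory complexes, were lower without overlap, where 4.88% of all genes were, and none was higher. Ndufa1 measured 8.22, 7.89 and 8.02 in the knockout and 7.85, 7.87 and 7.75 in the mosaic. In the unfolded protein and amino acid response Vldlr (0.27 ± 0.15), Ddit4 (0.22 ± 0.13), an mTOR inhibitor that is also a target of HIF, and Asns, asparagine synthetase (0.21 ± 0.18), were higher without overlap, 3 of 20 genes, where 5.14% of all genes were. The chaperone Hspa5 (-0.15 ± 0.11) and the stress factor Ddit3 (0.03 ± 0.12) overlapped, and the list median was -0.02. The heat shock gene Hspa1a had the largest difference of any listed gene, 0.77 ± 0.43, but it measured 8.71, 8.34 and 10.05 in the knockout and 8.69, 10.01 and 10.71 in the mosaic. Its replicates thus differed by more than the cultures.

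The remaining lists stayed near 0. Their medians were 0.01 for 29 extracellular matrix genes, 0.01 for 20 genes of the interferon response and antigen presentation, 0.01 for 20 imprinted genes, -0.01 for 8 histone genes and -0.01 for 22 regional transcription factors of the forebrain. Thbs1, the matrix protein thrombospondin 1, was lower without overlap, with 6.23, 6.04 and 6.06 in the knockout and 5.72, 5.73 and 5.72 in the mosaic (-0.39 ± 0.17), and at day 4 it differed by -0.40. Irf1, a transcription factor of the interferon response (-0.28), Magel2, an imprinted gene (-0.25), the linker histone H1f3 (-0.21) and Pax7, a regional factor (-0.30), were lower without overlap. B2m, the light chain of class I antigen-presenting molecules, was higher (0.12), as was Col11a1, a collagen chain (0.07). Among all genes tested 5.14% were higher and 4.88% lower without overlap. Over all 36 lists 0 genes were called. Another scaling of the arrays changed the sign of 1 list median, that of the Wnt targets, which was 0.00.

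**Figure D5:**
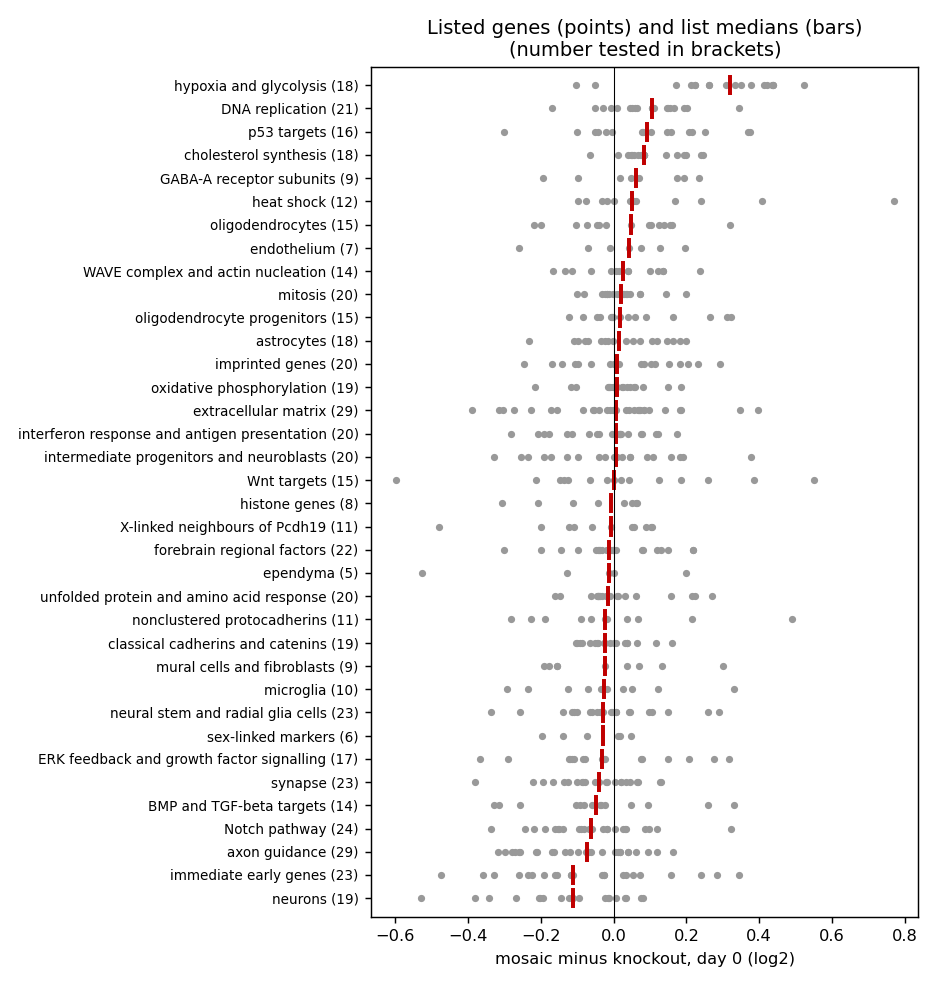
Mosaic minus knockout difference at day 0 (log2) of each listed gene tested (grey points), with the list median (red bar), lists ordered by median. The hypoxia and glycolysis median stands at 0.32 and the medians of the other lists lie between -0.11 and 0.11.

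The difference between mosaic and knockout was compared between the days in 1 contrast. In limma 0 of 19016 genes (0%) passed, with a lowest adjusted p of 0.481, and 815 genes (4.29%) had an unadjusted p under 0.05. At day 4 itself 0 genes were called and 1155 (6.07%) had an unadjusted p under 0.05. The shares of all genes without overlap were 5.14% higher and 4.88% lower at day 0, and 4.24% and 4.44% at day 4. Of the 19016 genes, 98 were without overlap on both days in the same direction and 74 in opposite directions. Adm was among the latter: at day 4 it measured 4.84, 4.72 and 4.78 in the knockout and 4.24, 4.55 and 4.17 in the mosaic, a difference of -0.46 after 0.43 at day 0. Among the 18 hypoxia and glycolysis genes the median change of the difference was -0.18, and Adm was the 1 with an unadjusted p under 0.05. Pfkp differed by 0.50 at day 4, close to its 0.52 at day 0, with knockout arrays at 6.36, 6.18 and 6.45 and mosaic arrays at 6.65, 6.81 and 7.03. It was 1 of the 2 genes of the list higher without overlap on day 4.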

How the data were processed

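The deposited values are one log2 signal per probe set and array, in a single table that the authors normalized; the method of normalization and of background correction is not given in the sources used here, nor is the base of the logarithm, which was taken as 2 from the range of the values. Normalization between arrays can remove a change shared by all genes. No read counts exist, and 3 arrays a group limit the precision. Of 41345 probe sets 23521 had 1 symbol, 1814 several and 16010 none on the platform annotation, and 23328 of the former matched RefSeq (GRCm38.p6). Genes above the 25th percentile of the array on at least 3 of 18 arrays were tested with limma 3.58.1 (R 4.3.3): 6 group means over all 18 arrays, contrasts between groups, and Benjamini-Hochberg adjustment over 19016 genes with calls at an adjusted p under 0.05. The named genes are the 12 largest differences in each direction among genes whose groups do not overlap, leaving out genes without a proper symbol. All tested hypoxia genes are named, and other listed genes were named after their values were seen. The members and lists were chosen with earlier results of these data known. The code was tested on simulated data. Alternatives were other normalizations, filters, probe set rules, arrays, blocks, weights, thresholds, and each array left out.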

Additional observations from a re-analysis of the deposited data

Results flagged for a closer look

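Adm, which encodes adrenomedullin, differed between mosaic and knockout in opposite directions on the 2 days: the mosaic was higher by 0.43 at day 0 and lower at day 4 (-0.46), without overlap on either day. Of the 19016 genes tested, 74 were without overlap in opposite directions in this way, beside 98 in the same direction. The difference at day 4 minus that at day 0 was -0.8985, which had an unadjusted p of 0.000481 in limma and did not pass over all genes (adjusted p = 0.67).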

How the results depend on the processing

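Under 13 of 13 alternatives that kept all arrays of both groups, 0 genes were called at day 0, and genes with an unadjusted p under 0.05 numbered from 583 with a filter at the 50th percentile to 1124 with a replicate block. The replicate block gave 0 called genes and a lowest adjusted p of 0.7662. Deviations of mosaic and knockout arrays with the same number correlated at 0.045, -0.003 and 0.165, so the numbers were not read as pairs. With each array left out the count of called genes ranged from 0 to 1 at day 0 (Flrt1, without knockout replicate 1) and from 0 to 1 for the difference between days (Cenpe, without mosaic day 4 replicate 1). The 24 named genes kept their sign in all 336 values. Among listed genes 5 reversed: Plagl1 to 0.06782 with the mean of probe sets, Gjb6 to -0.03759 without knockout replicate 2 (up to 0.3322 without another array), Hey1 to 0.00496 without mosaic replicate 3 (down to -0.2711), Etv5 to -0.01619 without knockout replicate 3 (up to 0.4693) and Hspb1 to -0.02675 without knockout replicate 1 (up to 0.4174). Causes were not tested. Of the list medians under alternatives, 16 moved by more than the spread between replicates and 488 did not. A median standard error of 0.126 limits what 3 technical arrays can resolve.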
